A study of Mus musculus with 27 samples.

Results

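The comparison of the early hindlimb bud (HLB) with the early forelimb bud (FLB) rested on 6 of the 27 RNA-seq libraries of the series, 3 of early HLBs and 3 of early FLBs, which were chosen by their labels. The series set limb bud organoids grown from mouse ES cells beside embryonic limb buds and other embryonic tissues, in 9 groups of 3 libraries. The early FLBs and HLBs were whole buds of Slc:ICR wild-type mouse embryos and carried no transgene or treatment. The labels give E10.0 (E for embryonic day) for both groups, whereas the study describes the HLBs as collected at a later stage than the FLBs, so limb type and stage cannot be told apart in this contrast. The buds were taken from 3 embryos by the study's methods, but neither these nor the labels say whether each library was 1 embryo or a pool, or give the litters, so the p-values below measure only the spread between these libraries, which may be technical. FLBs and HLBs of E10.5 embryos of the same strain, 3 libraries of each, served as a second, later contrast that shares no library with the early one.

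The limb bud starts as a bulge of lateral plate mesoderm covered by surface ectoderm. Its mesenchyme keeps the ectodermal ridge at its tip active with Fgf10, and the ridge returns Fgf8 and other FGFs that keep the mesenchyme growing. Sonic hedgehog (Shh) from the posterior mesenchyme sets the thumb-to-little-finger axis, retinoic acid and Meis proteins mark the proximal part, and the Hoxa and Hoxd clusters are switched on in order, from the 3′ genes used in the upper limb to the 5′ genes used in the hand and foot. Isl1 acts upstream in the hindlimb field, where the forelimb field uses Tbx5 and retinoic acid.

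The levels are CPM, counts scaled to a total of 1000000 per library, after further scaling of the libraries (TMM), and each fold change is the log2 ratio of HLB over FLB on the log2(CPM + 0.5) scale, with its standard error from limma and n = 3 against 3. The early FLB libraries held an estimated 21010404 to 22142300 reads and the early HLB libraries 19642244 to 21001308 reads, and 3 reads corresponded to 0.151 to 0.166 CPM, for counting error only. The labels held at the limb type genes. Tbx5, the forelimb transcription factor, stood at 100.5, 95.7 and 97.5 CPM in early FLBs and 0.554, 0.899 and 0.665 CPM in early HLBs. Tbx4, its hindlimb counterpart, stood at 0.884, 0.713 and 0.685 CPM in early FLBs and 138, 134 and 137 CPM in early HLBs. Pitx1, which acts upstream of Tbx4, stood at 6.50, 5.19 and 11.5 CPM in early FLBs and 250.2, 224 and 247 CPM in early HLBs. For all of these genes the groups lay far apart. Limb mesenchyme genes were present in both groups, with no call for Prrx1 (log2 fold change 0.21 ± 0.09), and Pearson's r across genes was 0.991 to 0.996 within groups and 0.972 to 0.984 between them.

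Of 12549 genes tested, 2575 (20.5%) passed an adjusted p of 0.05, 1168 (9.31%) of them higher in early HLBs and 1407 (11.2%) lower. Most changes were small, with a median fold of 1.36 for the genes that rose and 1.27, FLB over HLB, for those that fell. Changes over 2-fold were found for 162 genes that rose (1.29%) and 192 that fell (1.53%). The libraries of the groups did not overlap for 4988 genes (39.7%), 2350 higher (18.7%) and 2638 lower (21%). Lack of overlap was also a condition for naming the 10 largest rises and the 10 largest falls, so for those genes it is no separate result. The split of the calls moved with the scaling, since 45.4% of them were higher in HLBs after TMM and 61.8% with the CPM as deposited. Leaving out early FLB replicate 1 lowered the count to 1509, and leaving out early HLB replicate 3 lowered it to 1656. The 52 gene lists used below held 799 tested genes, of which 322 were called, 128 higher and 194 lower. Of these 322, 208 kept the call whichever library was left out, 114 lost it without at least 1 library, and the genes called below are from the first set unless the text says otherwise. A list's count of 4 or more that moved by over 1.5 times without 1 library is given with that library, and counts under 4 rest on too few members for this. Shares near those over all genes, 9.31% higher and 11.2% lower, carry no result about a list.

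**Figure D1:**
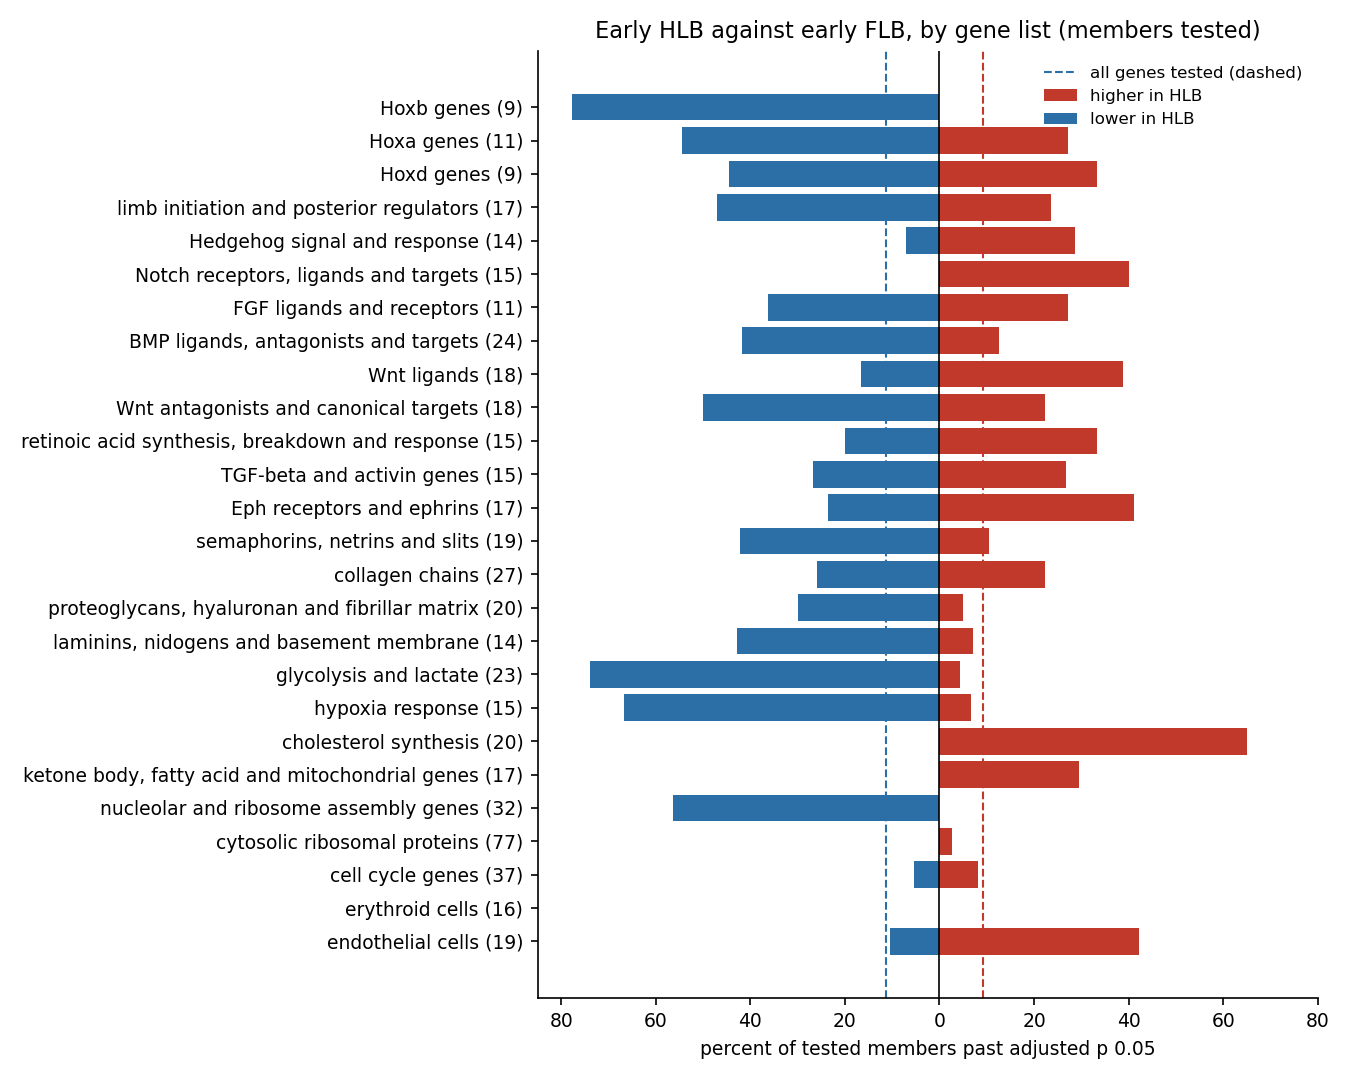
Share of the tested members of each gene list that passed an adjusted p of 0.05 in early HLBs against early FLBs, with higher members to the right and lower members to the left. The dashed lines mark the shares over all genes, 9.31% higher and 11.2% lower. Glycolysis and the hypoxia response reach furthest to the left among the metabolic lists, and cholesterol synthesis reaches furthest to the right among them.

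The Hoxa and Hoxd clusters differed at both ends, with genes near the 3′ end lower and genes at the 5′ end higher in early HLBs, and the Hoxb cluster was lower. Of 11 Hoxa genes tested 3 rose and 6 fell, of 9 Hoxb genes none rose and 7 fell, and of 9 Hoxd genes 3 rose and 4 fell. The 3 Hoxd genes that rose were the most 5′ ones, which pattern the digits. Hoxd13 was measured at 6.39, 6.72 and 3.90 CPM in early FLBs and 46.4, 56.5 and 47.97 CPM in early HLBs (log2 fold change 3.07 ± 0.19, adjusted p = 7.07e-05). Hoxd12 stood at 0.208, 0.102 and 0.0527 CPM in early FLBs and 21.3, 14.1 and 13.5 CPM in early HLBs. Its FLB values were at or near the level of 3 reads, and lack of overlap was part of the rule that named Hoxd12 and Hoxd13. Hoxd12 entered the test only through its HLB values, so its part in the count of 3 carries little weight. Hoxd11 rose from 2.60, 2.65 and 1.26 CPM in early FLBs to 36.4, 31.9 and 38.2 CPM in early HLBs, with a log2 fold change of 3.80 ± 0.22. Between them and the 3′ genes lay Hoxd10, at 49.6, 54.6 and 26.6 CPM in early FLBs and 66.2, 54.5 and 60.7 CPM in early HLBs, whose groups overlapped and which was not called (log2 fold change 0.53 ± 0.31). Hoxd9 and Hoxd8 fell, with log2 fold changes of -1.41 ± 0.15 and -1.35 ± 0.10.

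In the Hoxa cluster, Hoxa10, used in the upper limb and thigh, rose from 22.8, 29.03 and 14.96 CPM in early FLBs to 165, 115 and 138 CPM in early HLBs (log2 fold change 2.65 ± 0.29). Hoxa13, a gene of the hand and foot plate, was measured at 0.0520, 0.153 and 0.0527 CPM in early FLBs and 3.28, 3.70 and 2.94 CPM in early HLBs, so that it was at or under the level of 3 reads in the FLBs and low in the HLBs. Hoxa13 thus entered the test only through its HLB values, and its part in the count of Hoxa rises carries little weight. Hoxa11, which patterns the forearm and lower leg, rose from 24.01, 25.1 and 11.8 CPM in early FLBs to 115, 81.1 and 99.9 CPM in early HLBs (log2 fold change 2.31 ± 0.35), but the call was lost without early HLB replicate 1 (adjusted p = 0.0617) and without early HLB replicate 3 (adjusted p = 0.0615). Its antisense RNA Hoxa11as rose as well (log2 fold change 3.48 ± 0.23), and since the strand setting of the counting was not stated, reads of this pair cannot be told apart. Toward the 3′ end, Hoxa4 and Hoxa5 fell (log2 fold changes -2.55 ± 0.11 and -1.70 ± 0.10), although transcripts annotated to Hoxa3 overlap both genes.

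Every called Hoxb gene fell. Hoxb5, a gene linked to the position of the forelimb along the body axis, stood at 33.4, 34.99 and 33.1 CPM in early FLBs and 3.93, 5.50 and 4.43 CPM in early HLBs (log2 fold change -2.76 ± 0.12, adjusted p = 9.03e-08). Hoxb1, the most 3′ gene of the cluster, stood at 22.1, 16.8 and 22.5 CPM in early FLBs and 0.454, 1.16 and 1.11 CPM in early HLBs. Lack of overlap between the groups was part of the rule that named both genes. The other called members were Hoxb2, Hoxb3, Hoxb4, Hoxb6 and Hoxb8, with the largest fall at Hoxb6 (-2.34 ± 0.08), whereas Hoxb7 and Hoxb9 changed by -0.14 ± 0.12 and -0.16 ± 0.24 and were not called. Cdx1, a caudal gene that acts upstream of Hox genes, fell, at 45.1, 50.3 and 46.1 CPM in early FLBs and 7.56, 9.42 and 9.14 CPM in early HLBs (log2 fold change -2.38 ± 0.09, adjusted p = 6.44e-08). No HLB library reached the FLB libraries at this gene.

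**Figure D2:**
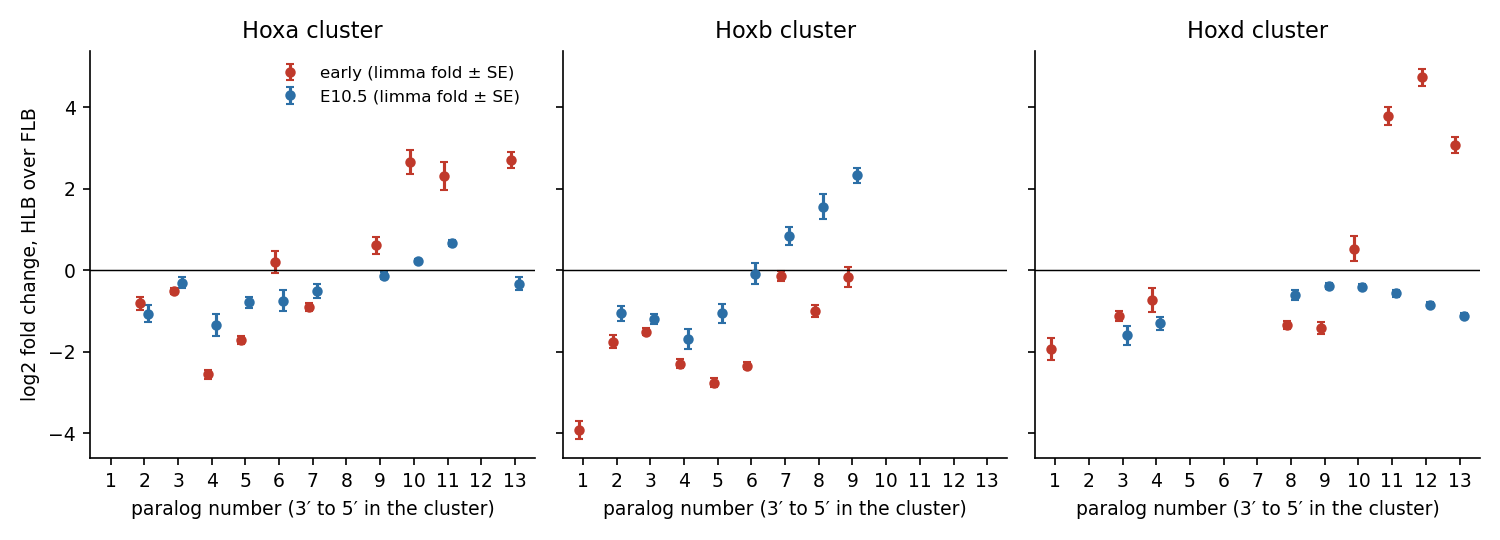
Log2 fold change of HLB over FLB for tested genes of the Hoxa, Hoxb and Hoxd clusters, ordered by paralog number, in the early contrast and at E10.5. Hoxd11, Hoxd12 and Hoxd13 stand at 3.80, 4.73 and 3.07 in the early contrast and below 0 at E10.5.

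Regulators of limb outgrowth moved in both directions: of 17 tested, 4 rose and 8 fell, counts that dropped to 2 without 5 of the 6 libraries, all but early FLB replicate 3, for the rise and to 5 without early FLB replicate 1 for the fall. Isl1, required for the start of the hindlimb, was measured at 1.92, 1.99 and 2.63 CPM in early FLBs and 15.98, 26.3 and 22.2 CPM in early HLBs (log2 fold change 3.02 ± 0.18, adjusted p = 3.14e-06). Gata4, a gene of anterior lateral plate mesoderm and the heart, stood at 14.9, 20.4 and 35.5 CPM in early FLBs and 0.202, 0.582 and 0.277 CPM in early HLBs (log2 fold change -4.75 ± 0.32, adjusted p = 7.12e-05). The FLB libraries differed among themselves at Gata4, but each was over any HLB library, which the naming rule asked for. All HLB values were under 1 CPM, so Gata4 entered the test only through its FLB values. Fgf10 was lower in early HLBs, with a log2 fold change of -0.48 ± 0.06. Tbx3, a repressor expressed along both margins of the bud, fell with a log2 fold change of -0.65 ± 0.09. Pkdcc, a secreted kinase of skeletal growth, stood at 436, 470.2 and 459 CPM in early FLBs and 154, 157 and 166 CPM in early HLBs, and its groups were tight and apart (log2 fold change -1.51 ± 0.05, adjusted p = 8.48e-09).

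Among 14 proximal regulators 4 rose and 4 fell (28.6% each, against 9.31% and 11.2% of all genes). Shox2, which controls growth of the upper arm and thigh, stood at 9.67, 9.01 and 5.06 CPM in early FLBs and 47.8, 23.3 and 28.1 CPM in early HLBs (log2 fold change 1.98 ± 0.37, adjusted p = 0.0218). All HLB values were over all FLB values, although the call was lost without early HLB replicate 3 (adjusted p = 0.0632), which also left 1 member of the list higher, against 2 without early FLB replicate 2 or 3. Irx3, which acts in early hindlimb patterning, rose by 0.54 ± 0.09 on the log2 scale and Tshz1 changed by -0.72 ± 0.11. Meis1 and Meis2, proximal homeobox genes, were not called (-0.01 ± 0.09 and -0.25 ± 0.10). Of 12 anterior and mesenchyme homeobox genes tested, 2 rose and 3 fell (16.7% and 25%, against 9.31% and 11.2% of all genes). Alx1, a homeobox gene of anterior mesenchyme, stood at 47.05, 43.4 and 47.8 CPM in early FLBs and 10.9, 21.7 and 16.8 CPM in early HLBs (log2 fold change -1.51 ± 0.25), which left the groups apart. Of 17 forkhead, COUP-TF, Osr and Twist genes 2 rose and 4 fell (11.8% and 23.5%, against 9.31% and 11.2% of all genes), so the share that rose was near that of all genes. Among the called members were Twist2 (0.56 ± 0.10) and Snai1 (-0.55 ± 0.06), both of which act in mesenchyme.

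Of the genes that Hedgehog signalling induces, Gli1 and Ptch1 were higher in early HLBs and Hhip was not called. Of 14 genes of the pathway tested 4 rose and 1 fell. Gli1, a transcription factor induced by Hedgehog signalling, was measured at 4.73, 3.46 and 3.53 CPM in early FLBs and 40.2, 17.03 and 19.1 CPM in early HLBs (log2 fold change 2.46 ± 0.35, adjusted p = 0.00624). The HLB libraries spread widely but lay above the FLB libraries. Ptch1, the main receptor, rose with a log2 fold change of 0.59 ± 0.10 and the co-receptor Gas1 with 0.42 ± 0.06, whereas Cdon, another co-receptor, fell (-0.33 ± 0.05). The ligand itself was not called: Shh stood at 1.14, 0.509 and 0.105 CPM in early FLBs and 3.78, 1.22 and 2.16 CPM in early HLBs (log2 fold change 1.43 ± 0.44, adjusted p = 0.0600), low values with a wide spread. Gli2, Gli3, Smo and Hhip, the transducers and a binding protein, changed by -0.17 ± 0.06, 0.14 ± 0.10, -0.03 ± 0.04 and 0.19 ± 0.23 and were not called.

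Fgf8, the main FGF of the ridge, stood at 28.02, 34.9 and 25.4 CPM in early FLBs and 60.02, 53.1 and 49.6 CPM in early HLBs (log2 fold change 0.88 ± 0.12, adjusted p = 0.00147). The HLB libraries were all above the FLB libraries. Among 11 FGF ligands and receptors 3 rose and 4 fell, and 2 fell without early FLB replicate 1 or without early HLB replicate 1. Feedback genes did not move one way: Dusp6, which dephosphorylates ERK, rose (0.70 ± 0.07), and Dusp4 and Spred1, further ERK pathway inhibitors, fell (-0.62 ± 0.06 and -0.38 ± 0.05), among 2 higher and 3 lower of 12. The shares of feedback genes were 16.7% higher and 25% lower, against 9.31% and 11.2% of all genes. The Sprouty genes Spry1, Spry2 and Spry4 changed by -0.02 ± 0.07, -0.10 ± 0.09 and -0.07 ± 0.10 and were not called. Sp9, a ridge transcription factor, was at 0.104, 0.0509 and 0.0527 CPM in early FLBs and 1.97, 2.38 and 1.94 CPM in early HLBs, with the FLBs under the level of 3 reads, while Sp6, another of the ridge, changed by -0.65 ± 0.12. Sp9 thus entered the test only through its HLB values.

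BMP pathway genes fell more often than they rose, with 3 of 24 higher and 10 lower, and 5 or 6 lower without early FLB replicate 2, early FLB replicate 3 or early HLB replicate 3. Bmp5, a ligand, stood at 18.6, 15.8 and 24.5 CPM in early FLBs and 4.99, 9.42 and 7.92 CPM in early HLBs (log2 fold change -1.36 ± 0.25, adjusted p = 0.0124). Bambi, a decoy receptor and BMP target, fell (-0.71 ± 0.07), as did the targets Id2 and Id3 (-0.56 ± 0.07 and -0.36 ± 0.05). Chrdl1, a secreted BMP antagonist, rose from 1.72, 1.32 and 2.58 CPM in early FLBs to 11.6, 6.29 and 6.76 CPM in early HLBs (log2 fold change 1.86 ± 0.26, adjusted p = 0.00140). Bmp4 and Bmp7, the most used ligands of the bud, were not called (-0.01 ± 0.05 and -0.01 ± 0.09).

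Wnt ligands and R-spondins rose more often than they fell, 7 against 3 of 18 tested. Wnt5a, which drives outgrowth from the distal mesenchyme, rose by 0.37 ± 0.05 on the log2 scale, Wnt5b by 0.57 ± 0.07 and Wnt7b, an ectodermal Wnt, by 0.81 ± 0.10. Rspo1, a secreted amplifier of Wnt signalling, stood at 3.69, 3.41 and 6.16 CPM in early FLBs and 13.4, 13.5 and 13.57 CPM in early HLBs (log2 fold change 1.55 ± 0.18, adjusted p = 3.62e-04). Rspo3 rose (1.34 ± 0.18) and Rspo4 fell (-1.46 ± 0.15), so the R-spondins did not move together. Among 18 antagonists and canonical targets 4 rose, 2 of them without early HLB replicate 1, and 9 fell. Nkd1, a Wnt target and inhibitor, stood at 110.1, 118 and 109 CPM in early FLBs and 56.3, 61.4 and 60.2 CPM in early HLBs (log2 fold change -0.91 ± 0.06, adjusted p = 1.67e-06). Its groups lay apart. The transcription factor Lef1 and the receptor Lgr5 fell as well (-0.74 ± 0.08 and -1.33 ± 0.18), as did Dkk2, an antagonist (-1.18 ± 0.17).

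In the retinoic acid pathway 5 of 15 tested genes rose, 2 or 3 without early FLB replicate 1, 2 or 3 or without early HLB replicate 3, and 3 fell. Rdh10, which makes retinaldehyde, stood at 51.7, 45.7 and 50.4 CPM in early FLBs and 20.01, 24.8 and 26.2 CPM in early HLBs (log2 fold change -1.05 ± 0.10, adjusted p = 6.34e-05). Cyp26a1, which breaks retinoic acid down and is induced by it, stood at 5.67, 4.68 and 7.64 CPM in early FLBs and 1.92, 3.23 and 2.05 CPM in early HLBs (log2 fold change -1.17 ± 0.21, adjusted p = 0.00345). Both genes were lower in each HLB library than in any FLB library. Aldh1a2, which makes retinoic acid from retinaldehyde, was not called (0.48 ± 0.23), and Crabp1, a binding protein, rose (0.43 ± 0.06). The Cyp26a1 promoter is shown because it holds a direct repeat bound by retinoic acid receptors with a spacer of 5 bases, the DR5 retinoic acid response element, which was searched on both strands, in the RefSeq promoters of GRCm38.p6, from 250 bases before to 50 after each start. It was found in 2 of the 15 list genes with a promoter, Cyp26a1 and Rarb, and in 16 of 27025 genes in all. Rarb had the other sign from Cyp26a1 and was not called (log2 fold change 0.35, adjusted p = 0.117 by limma). The list was chosen as genes of this pathway, so the share is no separate result. The 150 bases before the start lie at chr19:37697658-37697807 on the plus strand, with the repeat in capitals. A match is a description of letters and not a measured site.
Cyp26a1: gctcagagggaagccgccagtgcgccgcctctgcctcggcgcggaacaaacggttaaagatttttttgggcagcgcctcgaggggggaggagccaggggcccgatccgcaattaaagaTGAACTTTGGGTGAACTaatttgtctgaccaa

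Of 15 Notch pathway genes tested 6 rose and none fell. Jag1, a ligand, stood at 13.98, 13.1 and 17.1 CPM in early FLBs and 25.7, 36.6 and 31.9 CPM in early HLBs (log2 fold change 1.06 ± 0.14, adjusted p = 0.00108). All HLB libraries were above all FLB libraries. The receptors Notch1 and Notch4 (0.56 ± 0.07 and 0.53 ± 0.12) and Mfng, a sugar transferase that modifies them (0.73 ± 0.12), were also higher, with 4 to 8 members called when 1 library was left out. Notch4 is used by endothelial cells, of whose 19 tested markers 8 were higher in the HLBs, and their part in this result was not tested.

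Igf1, a growth factor, was higher in early HLBs, at 6.34, 5.30 and 6.58 CPM in early FLBs and 31.6, 33.5 and 29.5 CPM in early HLBs (log2 fold change 2.29 ± 0.10, adjusted p = 1.29e-07). The groups were tight and did not overlap. Igf2 and the receptor Igf1r were not called (-0.07 ± 0.04 and 0.02 ± 0.06). Of 11 IGF genes tested 1 rose and 3 fell (9.09% and 27.3%, against 9.31% and 11.2% of all genes), with Igfbp3, a binding protein, at -0.48 ± 0.05. Of 15 TGF-beta and activin genes 4 rose and 4 fell. Tgfb2, a ligand, stood at 64.6, 62.4 and 66.8 CPM in early FLBs and 18.6, 25.1 and 28.4 CPM in early HLBs (log2 fold change -1.43 ± 0.14, adjusted p = 5.80e-04), with all HLBs lower. Tgfbr3, a co-receptor, fell (-0.97 ± 0.07), and Tgfbr2, the type II receptor, rose (0.63 ± 0.09). Without early FLB replicate 1, early FLB replicate 3 or early HLB replicate 3, 2 of the list rose.

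**Figure D3:**
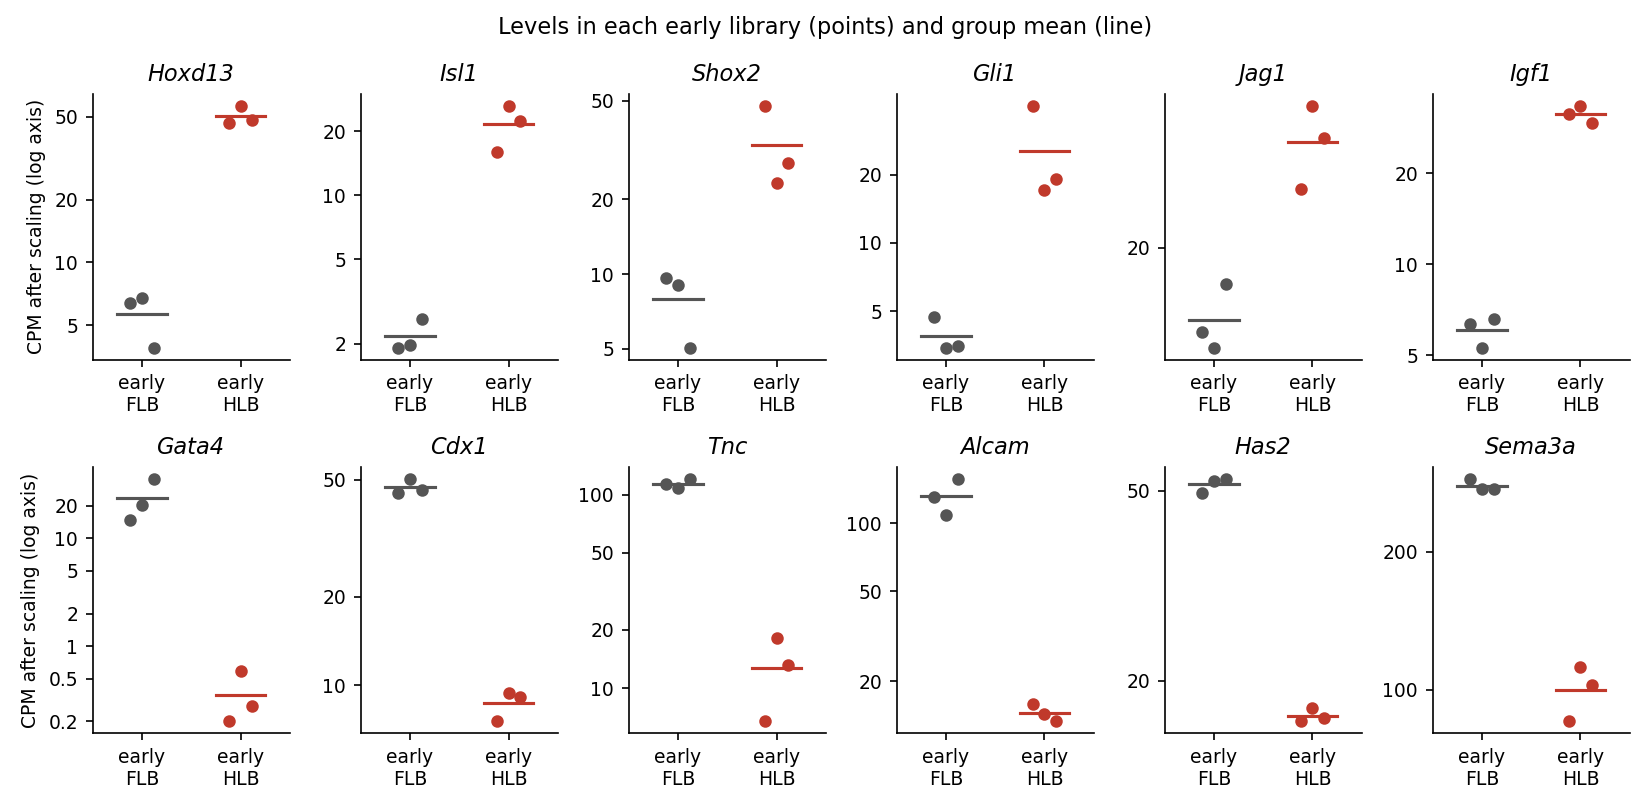
Scaled CPM on a log axis of 12 genes in the 3 early FLB and 3 early HLB libraries, points for libraries and a line for the group mean. In each panel the libraries of the groups do not overlap, which was a condition of the naming for Hoxd13, Isl1, Gata4, Tnc and Alcam. The genes include Gli1, Igf1 and Jag1, which were higher in early HLBs, and Gata4, Tnc and Has2, which were lower.

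Guidance genes fell more often than they rose. Of 19 semaphorins, plexins, netrins, slits and their receptors 2 rose and 8 fell. Sema3a, a secreted repellent of axons and of endothelial cells, stood at 288, 274 and 274 CPM in early FLBs and 85.5, 112 and 102 CPM in early HLBs (log2 fold change -1.48 ± 0.09, adjusted p = 2.66e-05). Plxna4, a receptor for class 3 semaphorins, stood at 56.5, 48.02 and 77.4 CPM in early FLBs and 10.3, 14.9 and 10.47 CPM in early HLBs (log2 fold change -2.29 ± 0.22, adjusted p = 0.00155). Both were clearly apart between the groups. Of 17 Eph receptors and ephrins 7 rose and 4 fell, with 3 or 4 higher and 1 or 2 lower without early FLB replicate 1, 2 or 3 or without early HLB replicate 3. Epha4, which guides motor axons into the dorsal limb, was among those that rose (0.80 ± 0.08). Alcam, an adhesion molecule of the immunoglobulin family, stood at 130.2, 108 and 156 CPM in early FLBs and 15.8, 14.3 and 13.3 CPM in early HLBs (log2 fold change -3.13 ± 0.13, adjusted p = 7.65e-06). Sdk2, another adhesion molecule of that family, fell (-2.88 ± 0.13), and Slitrk6, a membrane protein of neurons, rose from 5.04, 4.28 and 4.27 CPM in early FLBs to 47.8, 32.8 and 60.3 CPM in early HLBs (log2 fold change 3.20 ± 0.21, adjusted p = 9.29e-05).

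Extracellular matrix genes fell more often than they rose in the lists of proteoglycans and fibrillar matrix (1 of 20 higher, 6 lower) and of laminins and nidogens (1 of 14 higher, 6 lower, but 3 lower without early FLB replicate 1 and 2 without early HLB replicate 3). Tnc, the matrix protein tenascin C, was measured at 114, 108 and 120.5 CPM in early FLBs and 6.75, 18.1 and 13.2 CPM in early HLBs (log2 fold change -3.22 ± 0.38, adjusted p = 0.00804). Has2, the main hyaluronan synthase of the bud, stood at 49.3, 52.4 and 52.9 CPM in early FLBs and 16.5, 17.6 and 16.7 CPM in early HLBs (log2 fold change -1.58 ± 0.07, adjusted p = 9.03e-08). The groups were apart by a wide margin at both genes. Smoc2, a matricellular protein, fell from 23.2, 22.2 and 32.2 CPM in early FLBs to 1.41, 2.91 and 1.22 CPM in early HLBs (log2 fold change -3.54 ± 0.28, adjusted p = 2.12e-04). Fbn1, a fibrillin, fell (-0.89 ± 0.09), as did Lamc1 and Nid2 of the basement membrane (-0.51 ± 0.08 and -0.39 ± 0.07). Of 27 collagen chains 6 rose and 7 fell. The 3 chains of collagen VI fell together (Col6a1 -0.84 ± 0.14, Col6a2 -0.81 ± 0.13 and Col6a3 -1.57 ± 0.24), as did Col12a1 (-1.81 ± 0.25), and Col9a1 and Col15a1 rose (0.89 ± 0.11 and 0.69 ± 0.09). Sox9, the regulator of cartilage condensation, was not called (0.41 ± 0.23), and 1 of 11 cartilage, bone and tendon regulators was, Runx2 (-1.56 ± 0.24).

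Glycolysis was the metabolic list with the most members lower in early HLBs, 17 of 23 tested, against 11.2% of all genes, and 1 rose. Ldha, which makes lactate, was measured at 3153, 3190 and 2985 CPM in early FLBs and 1455, 1876 and 1780 CPM in early HLBs (log2 fold change -0.88 ± 0.09, adjusted p = 6.07e-04). Pgk1, which makes ATP in the pathway, stood at 1760, 1665 and 1589 CPM in early FLBs and 814, 1008 and 951 CPM in early HLBs (log2 fold change -0.86 ± 0.08, adjusted p = 1.17e-04). Aldoa, the aldolase, stood at 1271, 1271 and 1135 CPM in early FLBs and 583, 753 and 705 CPM in early HLBs (log2 fold change -0.86 ± 0.10). At all of these the HLB libraries lay below the FLB libraries without overlap. The steps before and after fell as well, among them the glucose transporter Slc2a1 (-0.65 ± 0.09), hexokinase Hk2 (-0.58 ± 0.09), the phosphofructokinases Pfkl and Pfkp (-0.87 ± 0.10 and -1.16 ± 0.15), Tpi1 (-0.83 ± 0.06) and Pkm2 (-0.58 ± 0.05). Gapdh, often used for normalization, fell by a smaller amount (-0.30 ± 0.05). The member that rose was Ldhb, the lactate dehydrogenase subunit that favours the use of lactate, at 48.97, 66.7 and 53.7 CPM in early FLBs and 159, 124 and 126 CPM in early HLBs (log2 fold change 1.26 ± 0.15, adjusted p = 0.00259). Leaving out 1 library left 15 to 17 members lower, and the CPM as deposited left 17.

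Targets of the hypoxia response fell in 10 of 15 cases, 6 without early FLB replicate 1, and 1 rose. Bnip3, a mitochondrial protein induced at low oxygen, was measured at 149, 126 and 118 CPM in early FLBs and 45.3, 54.5 and 55.95 CPM in early HLBs (log2 fold change -1.33 ± 0.11, adjusted p = 1.30e-04). Vegfa, the growth factor of blood vessels, stood at 83.7, 78.2 and 70.7 CPM in early FLBs and 50.5, 43.3 and 45.2 CPM in early HLBs (log2 fold change -0.74 ± 0.08, adjusted p = 1.01e-04). The groups did not overlap at either gene. Egln1, an oxygen sensor, and Ndrg1 fell (-0.44 ± 0.07 and -0.76 ± 0.09). The RNA of Hif1a, the factor itself, was not called (-0.15 ± 0.05), and its activity is set at the protein level, which was not measured.

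Promoters of 4 of these genes are shown since the letters bound by hypoxia-inducible factors stand in them. The core ACGTG was searched on both strands, where the palindrome CACGTG counts once on each, in the RefSeq promoters of GRCm38.p6, from 250 bases before to 50 after each start. It was held by 11 of 14 hypoxia genes with a promoter (78.6%) and by 14 of 23 glycolysis genes (60.9%), against 21.8% of 27025 genes. The hypoxia list was chosen as targets of this response, so its share is no separate result. Promoters of members that were not called, such as Hk1 and Pfkm, held the core as well as promoters of members that fell. The 4 shown were chosen among genes that fell. A match is a description of letters and not a measured site. The 150 bases before the start are printed with the core and its overlapping copies in capitals, at chr7:46845654-46845803 on the plus strand for Ldha, chrX:106186950-106187099 on the plus strand for Pgk1, chr11:120948917-120949066 on the plus strand for Slc16a3, which exports lactate, and chr7:138909507-138909656 on the minus strand for Bnip3.
Ldha: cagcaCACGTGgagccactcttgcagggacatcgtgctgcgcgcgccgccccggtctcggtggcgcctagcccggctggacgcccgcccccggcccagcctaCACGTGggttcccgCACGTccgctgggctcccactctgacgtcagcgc
Pgk1: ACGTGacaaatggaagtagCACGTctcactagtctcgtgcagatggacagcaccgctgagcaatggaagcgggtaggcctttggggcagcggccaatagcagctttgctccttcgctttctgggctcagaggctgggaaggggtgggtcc
Slc16a3: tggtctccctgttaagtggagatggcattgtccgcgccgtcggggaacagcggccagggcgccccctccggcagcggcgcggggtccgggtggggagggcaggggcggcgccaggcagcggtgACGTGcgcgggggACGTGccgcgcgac
Bnip3: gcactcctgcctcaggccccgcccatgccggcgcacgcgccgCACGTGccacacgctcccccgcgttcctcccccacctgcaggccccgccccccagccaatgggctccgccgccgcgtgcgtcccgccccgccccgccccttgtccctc
Beside these sequences, Slc16a3 stood at 279, 267 and 247 CPM in early FLBs and 92.6, 141 and 143 CPM in early HLBs (log2 fold change -1.09 ± 0.19), and its call was lost without early FLB replicate 1 (adjusted p = 0.0557) and without early FLB replicate 2 (adjusted p = 0.0521).

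Both Oxct1 and Bdh1, genes for the use of ketone bodies, rose. Oxct1, which activates ketone bodies in mitochondria, stood at 59.5, 59.5 and 51.5 CPM in early FLBs and 131, 134 and 134 CPM in early HLBs (log2 fold change 1.22 ± 0.06, adjusted p = 3.01e-07). Bdh1, which interconverts them, stood at 8.79, 7.64 and 7.69 CPM in early FLBs and 20.7, 20 and 20.3 CPM in early HLBs (log2 fold change 1.29 ± 0.09, adjusted p = 7.22e-06). Both were tight within groups. Acat1 and Idh2, mitochondrial enzymes, rose by less (0.36 ± 0.07 and 0.27 ± 0.05), so that 5 of 17 genes of ketone body, fatty acid and mitochondrial metabolism rose and none fell. Cholesterol synthesis genes were higher in all 20 cases by sign and in 13 by the test, but the count fell to 3 without early HLB replicate 1 and rose to 19 without early FLB replicate 2. Idi1, an enzyme of the isoprenoid steps, stood at 97.2, 136 and 94.3 CPM in early FLBs and 197, 188 and 228 CPM in early HLBs (log2 fold change 0.92 ± 0.16), with adjusted p = 0.0777 without early HLB replicate 1. Mvk, Pmvk and Hsd17b7 kept the call whichever library was left out (0.50 ± 0.10, 0.36 ± 0.07 and 0.43 ± 0.07).

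**Figure D4:**
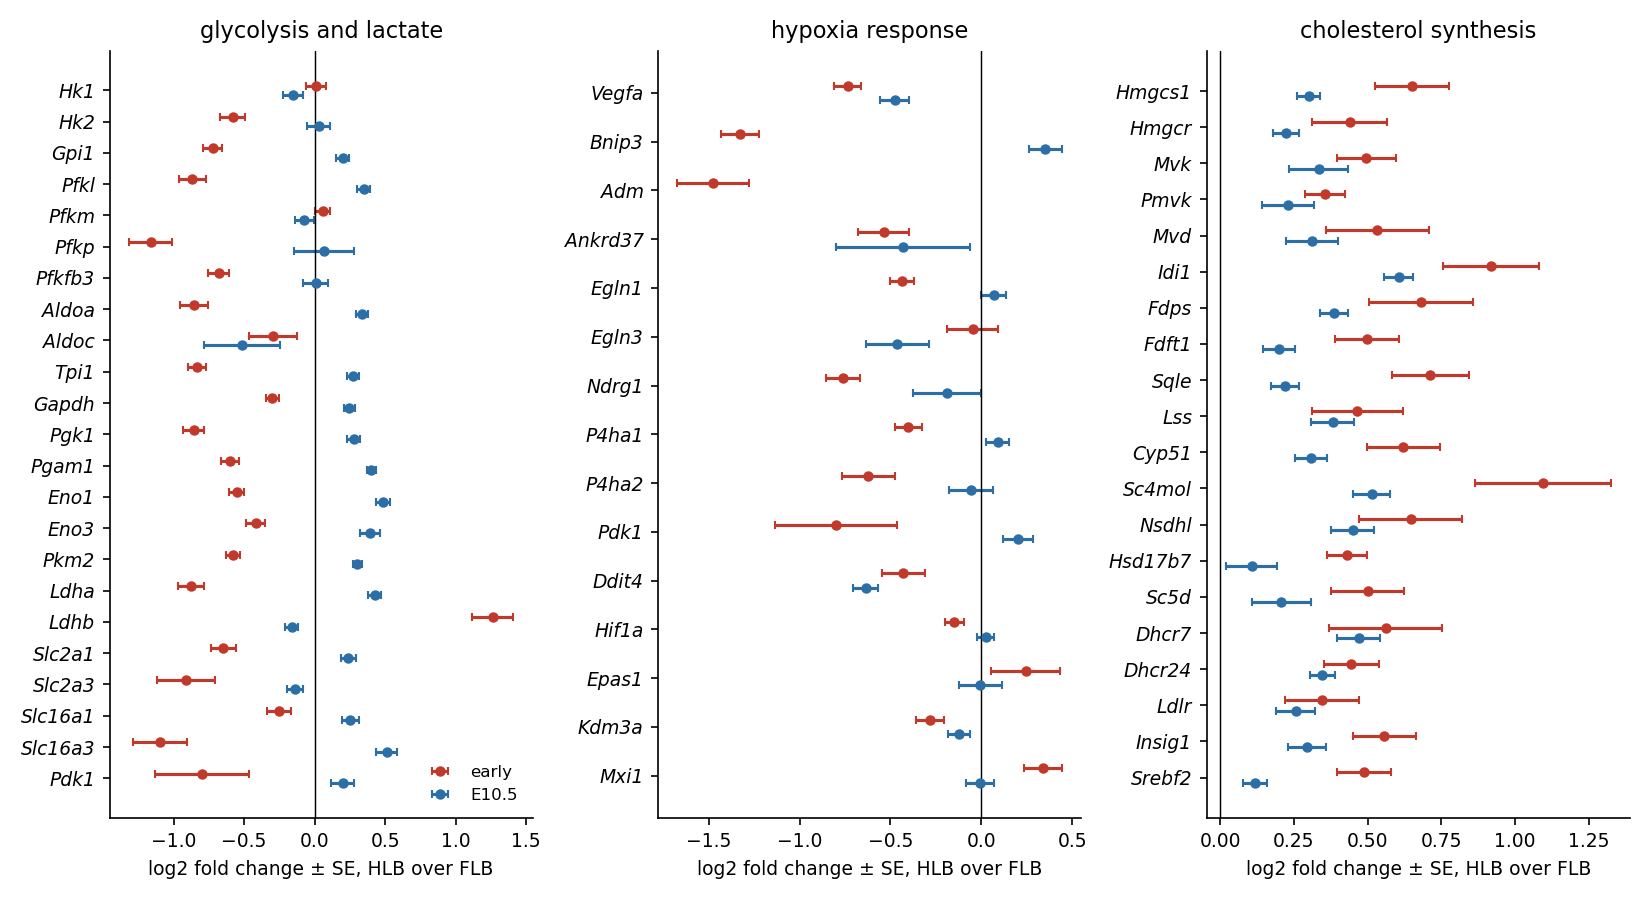
Log2 fold change ± SE of HLB over FLB for the glycolysis, hypoxia and cholesterol lists in the early contrast and at E10.5. The glycolysis genes Ldha, Pgk1 and Aldoa lie at -0.88, -0.86 and -0.86 in the early contrast and above 0 at E10.5, while cholesterol genes lie above 0 in both.

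Nucleolar genes were lower by small amounts, with 18 of 32 called lower, none higher, and all 32 below 0 by sign. Ncl, nucleolin, stood at 3422, 3394 and 3338 CPM in early FLBs and 2406, 2936 and 2783 CPM in early HLBs (log2 fold change -0.33 ± 0.07, adjusted p = 0.00690). Polr1a, the large subunit of RNA polymerase I, stood at 207, 190.4 and 197 CPM in early FLBs and 135, 157 and 151 CPM in early HLBs (log2 fold change -0.43 ± 0.06, adjusted p = 7.48e-04). These changes were smaller than those of Ldha and Pgk1 but left no overlap. Leaving out 1 library gave 14 to 21 lower members, and limma without its variance trend and robust estimation gave 11. Of 77 cytosolic ribosomal protein genes 2 rose and none fell, and of 37 cell cycle genes 3 rose and 2 fell, both under the shares over all genes. With the CPM as deposited this did not hold for the rise, since 19 ribosomal protein genes (24.7%) and 7 cell cycle genes (18.9%) were then higher, against 13.2% of all genes. Ccnd2, a cyclin of the G1 phase, was the cell cycle gene with the smallest adjusted p (log2 fold change -0.44 ± 0.04, adjusted p = 6.96e-05). In the list of Lin28, Igf2bp and Hmga genes, which mark early developmental timing, 1 of 13 rose and 4 fell, with Igf2bp1 at -0.40 ± 0.04 and Trim71 at -0.48 ± 0.07. The shares of this list were 7.69% higher and 30.8% lower, against 9.31% and 11.2% of all genes. Of 19 chromatin remodelers and DNA methylation genes 2 rose, Chd3 (1.28 ± 0.06) and Dnmt3a (0.53 ± 0.06), and 6 fell. Chd3, a helicase of the NuRD complex, stood at 55.2, 52.05 and 49.8 CPM in early FLBs and 133, 122.7 and 127 CPM in early HLBs, with the groups far apart.

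Whole buds hold other cell types, and in bulk libraries fewer cells of a type and less RNA per cell cannot be told apart. The summed level of 14 macrophage markers was 2.37 to 3.02 CPM in early FLBs and 13.1 to 16.1 CPM in early HLBs, although 8 of the 14 stayed below 1 CPM. Of 4 tested 3 rose. Csf1r, the receptor macrophages need to survive, stood at 0.364, 0.255 and 0.158 CPM in early FLBs and 1.97, 2.01 and 2.77 CPM in early HLBs (log2 fold change 1.85 ± 0.21, adjusted p = 1.84e-04). The FLB libraries were near the level of 3 reads and under 1 CPM, and all HLB libraries were higher. Csf1r thus entered the test only through its HLB values, so the count of 3 among 4 tested carries little weight. Of 19 endothelial markers 8 rose and 2 fell, while the summed level overlapped (592 to 633 CPM in FLBs and 624 to 737 CPM in HLBs). Pecam1 and Cdh5, adhesion molecules of vessels, rose (0.59 ± 0.08 and 0.41 ± 0.07) and Etv2, the earliest regulator of this lineage, fell (-1.18 ± 0.17). Erythroid markers summed to 2646 to 4773 CPM and 3680 to 7347 CPM, which overlapped. None of 16 tested was called by limma, and none had an unadjusted p under 0.05, although 15 were above 0 by sign with a median log2 fold change of 0.49, and 3 were called higher without early HLB replicate 3.

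Markers of the heart and of the coelomic lining were lower in the HLBs. Heart markers summed to 27.3 to 64.7 CPM in FLBs and 9.68 to 13.5 CPM in HLBs, with 3 of 5 tested lower and Nppb at 0 in all 6 libraries. Markers of intermediate mesoderm and the coelomic lining summed to 115 to 156 CPM and 63.5 to 100.8 CPM, with 6 of 12 lower. Lhx1, a gene of the nephric duct, stood at 3.22, 2.19 and 3.27 CPM in early FLBs and 0, 0.0529 and 0 CPM in early HLBs. The HLB values were under the level of 3 reads, so that Lhx1 entered the test only through its FLB values. Lrrn4, a mesothelial gene, fell (-2.02 ± 0.16). Gata4 is also a heart and coelomic gene, and the part of these tissues in its difference was not tested. Muscle precursor markers summed to 157 to 168 CPM and 143 to 151 CPM. Of 11 tested, 1 was higher and 2 were lower (9.09% and 18.2%, against 9.31% and 11.2% of all genes), with a median log2 fold change of -0.01. Met, the receptor that migrating precursors need, was lower (-0.50 ± 0.06). Surface ectoderm and ridge markers overlapped in their sums, 673 to 814 CPM against 621 to 714 CPM and 323 to 369 CPM against 299 to 347 CPM. Members of both lists went both ways, with 3 of 20 surface ectoderm genes higher and 5 lower (15% and 25%), and 4 of 14 ridge genes higher and 5 lower (28.6% and 35.7%). Over all genes the shares were 9.31% and 11.2%. Leaving out 1 library gave 1 to 4 higher and 2 to 7 lower surface ectoderm genes, with the fewest higher without early FLB replicate 1 and the fewest lower without early FLB replicate 2 or early HLB replicate 1 or 3. For the ridge it gave 2 to 4 higher and 2 to 6 lower, with the fewest higher without early HLB replicate 3 and the fewest lower without early FLB replicate 2.

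The early difference was set beside that at E10.5, where 3551 of 12667 genes (28%) were called, 1909 (15.1%) higher and 1642 (13%) lower. One E10.5 HLB library, replicate 2, lacked values for 8340 genes, so a fold change of those genes rests on 2 HLB libraries. The E10.5 libraries were shallower than the early ones, at an estimated 5543756 to 5908845 reads in FLBs and 3661846 to 5732798 in HLBs. In them 3 reads corresponded to 0.505 to 0.554 CPM. Of the 1155 genes higher early and tested at both stages, 207 were also higher at E10.5 (17.9% of the early calls and 10.9% of the E10.5 calls) and 191 (16.5%) were lower. Of the 1338 lower early, 291 were also lower (21.7% and 19.4%) and 253 (18.9%) were higher. The sign at E10.5 was that of the early contrast for 50.6% of the early higher genes and 52.6% of the early lower ones. The difference between both contrasts, an interaction in 1 limma fit, was called for 3329 of 13068 genes (25.5%).

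The 5′ Hoxd genes were reversed, with E10.5 log2 fold changes of -0.57 ± 0.08 for Hoxd11, -0.84 ± 0.07 for Hoxd12 and -1.11 ± 0.06 for Hoxd13, and a called difference for each. Isl1 kept its direction (2.09 ± 0.20 at E10.5), as did Gata4 (-1.81 ± 0.35), Tnc (-2.09 ± 0.27), Alcam (-1.49 ± 0.10) and Has2 (-0.58 ± 0.11). Gli1 and Igf1, higher early, stood at 0.02 ± 0.07 and 0.18 ± 0.08 at E10.5 and were not called there. Of the 17 glycolysis genes that fell early, 13 rose at E10.5, and the difference was called for 16. Of the 18 nucleolar genes that fell early, 13 rose at E10.5, and the difference was called for 18. Of the 6 Notch genes that rose early, 3 fell at E10.5, and the difference was called for 5. Cholesterol synthesis was higher at both stages, with 18 of 20 genes called at E10.5. The E10.5 counts depend on the scaling. TMM divided the CPM of E10.5 HLB replicate 2, the library that lacked 8340 values, by 1.49961. The divisors were 0.958622 and 0.968927 for E10.5 HLB replicates 1 and 3, and 1.00338 to 1.02025 for the E10.5 FLBs. The CPM as deposited leave this truncated library uncorrected. With them none of the 4 lists above had a call at E10.5. The median log2 fold change went from 0.24 after TMM to 0.21 for glycolysis and from 0.23 to 0.35 for the nucleolar genes. It went from -0.22 to -0.07 for Notch and from 0.30 to 0.37 for cholesterol synthesis. The difference was then called lower for 12 glycolysis genes and higher for 1, lower for 1 nucleolar gene, higher for 3 Notch genes and for no cholesterol gene, against 3 after TMM. At E10.5 the same scaling left the 5′ Hoxd genes below 0 but not called (-0.42 ± 0.24 for Hoxd11, -0.70 ± 0.21 for Hoxd12 and -0.97 ± 0.17 for Hoxd13, adjusted p = 0.538, 0.274 and 0.0714), with the difference still called for each. Isl1 and Alcam kept their E10.5 call with it (adjusted p = 0.00766 and 0.0424), and Gata4, Tnc and Has2 did not (adjusted p = 0.128, 0.118 and 0.428).

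**Figure D5:**
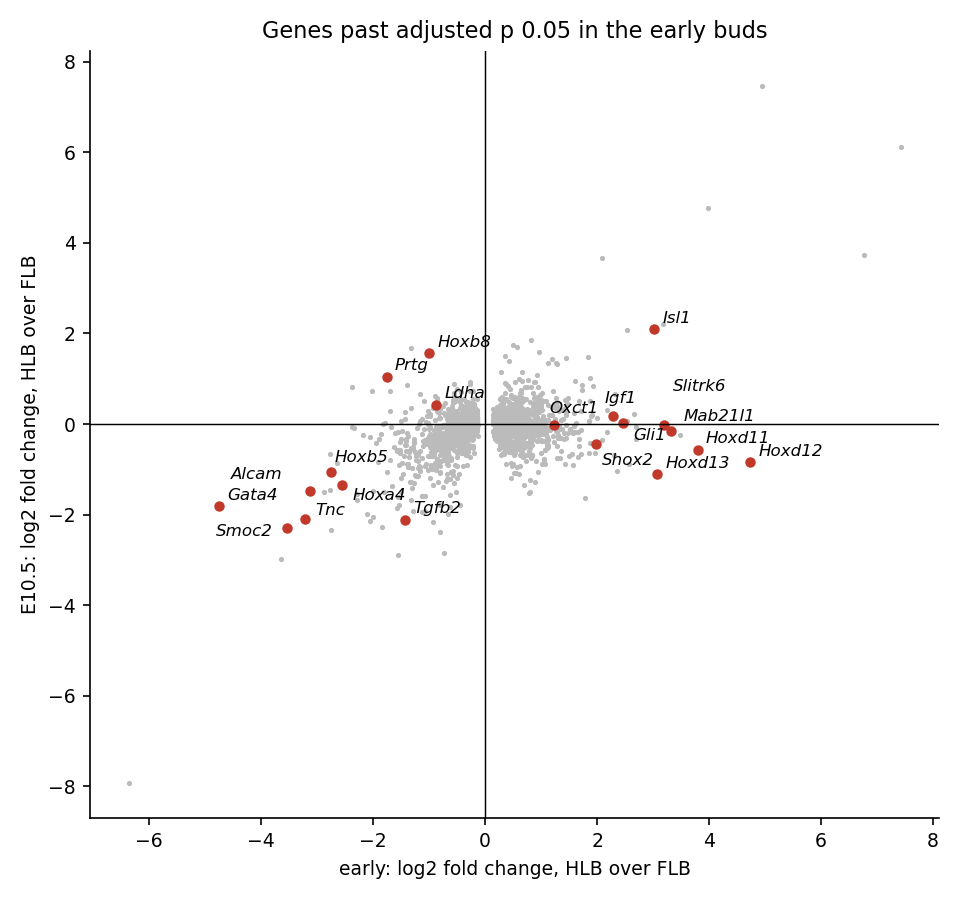
Log2 fold change of HLB over FLB at E10.5 against that in the early contrast, 1 point per gene called early and tested in both, with named genes labelled. The 5′ Hoxd genes lie to the right of 0 and below 0, and Isl1 lies to the right of 0 and above 0.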

How the data were processed

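RNA was measured from whole FLBs and HLBs with a stranded mRNA kit. Per the labels and the study's methods, the authors checked reads with FastQC 0.11.5, mapped them to mm10 with HISAT2 2.0.4 and deposited CPM (read counts scaled to each library's total) of 23279 genes, with Cufflinks 2.1.1 and edgeR 3.16.2 among the tools named. The version of the annotation and the strand setting of the counting are not given in the sources used here. CPM sum to 1000000 per library, so a level is relative to the other genes of its library.

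From the deposited CPM, all 27 libraries were scaled by unweighted TMM, with 30% of log ratios and 5% of intensities trimmed at each end. A gene entered the test when 3 or more of the libraries in a contrast reached 1 CPM. The test was limma 3.58.1 in R 4.3.3 (variance trend and robust estimation) on log2(CPM + 0.5), with the Benjamini-Hochberg adjustment taken over the genes tested in each fit and a call at 0.05. The early fit used the 6 early libraries. The fitting script was also run on simulated counts with known changes. Of the CPM above 0 in the early libraries, 92.0% to 92.3% came to whole reads within 0.01 of a read. Depths are thus estimates, and no count test was run. E10.5 HLB replicate 2 listed nearly all genes of several chromosomes at 0, and 8340 values were set to missing, 8309 of them of genes in the lost region and 31 of expressed genes elsewhere that were listed at 0. Replicate numbers did not pair the libraries. The named genes were the 10 with the largest called rise and the 10 with the largest called fall, with at least 16 CPM in the mean of the higher group and no overlap between groups, beside the called list members. The members, the gene lists and the tests were chosen with earlier results of these data known. Genes were placed by RefSeq names, with 23007 matched, and overlapping genes are uncertain. Some genes that met the naming rule or belong to the lists are not reported here. Python 3.11.15 drew the figures.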

Additional observations from a re-analysis of the deposited data

Results flagged for a closer look

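The fold change of HLB over FLB differed between the early and the E10.5 contrast for 3329 genes in the interaction test of limma, among them 13 of the genes named for their early change. The early log2 fold change exceeded that at E10.5 by 5.58 for Hoxd12, 4.36 for Hoxd11, 4.18 for Hoxd13, 3.73 for Hoxa11as, 3.49 for Mab21l1, 3.22 for Slitrk6 and 0.93 for Isl1. For genes lower early, the early minus E10.5 difference was -3.42 for Hoxb1, -2.94 for Gata4, -1.70 for Hoxb5, -1.64 for Alcam, -1.38 for Sdk2 and -1.25 for Smoc2. With the CPM as deposited limma no longer called the difference for Isl1 (adjusted p = 0.121) and Smoc2 (adjusted p = 0.0770), and the other 11 kept it. Mab21l1, a developmental nucleotidyltransferase-like protein, lies inside Nbea on the opposite strand, and reads of this pair cannot be told apart without the strand setting. By list, the difference was called for 18 of 23 glycolysis genes, 31 of 32 nucleolar genes and 9 of 15 Notch genes, against 25.5% of all genes. With the CPM as deposited it was called lower for 12 glycolysis genes and higher for 1. In that setting it was called lower for 1 nucleolar gene and higher for 3 Notch genes.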

How the results depend on the processing

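The early count of 2575 genes was 2201 to 2705 under median-of-ratios scaling, the CPM as deposited, no filter, a 5 CPM filter, pseudocounts of 0.25 and 2, all embryonic limb bud libraries in 1 fit, and limma voom on estimated reads, which was added after the data were seen. Without limma's variance trend and robust estimation it was 1861, with 915 lower genes. Leaving out 1 early library gave 1509 (without early FLB replicate 1) to 2390 genes (without early HLB replicate 2), 679 to 1055 higher and 830 to 1335 lower. The replicate numbers did not pair the libraries, since same-numbered FLB and HLB libraries deviated together with r = 0.114, -0.109 and 0.00876, and the replicate number as a block gave 2367 calls. The lists held 322 calls, 308 with the block and 244 to 325 when 1 library was left out, with gains included. The block gave 3 higher cholesterol genes in place of 13, 8 higher erythroid genes in place of 0, 2 lower FGF genes in place of 4, 2 higher limb outgrowth regulators in place of 4, and 3 higher retinoic acid genes in place of 5. Without trend and robust estimation the counts were 2 lower laminin and nidogen genes in place of 6, 4 higher Eph and ephrin genes in place of 7, 2 lower ridge genes in place of 5, 2 higher proximal regulators in place of 4 and 3 higher retinoic acid genes in place of 5. Over 184 named or listed genes and 16 settings, 2725 results kept their side of the threshold, 213 passed below it and none changed sign, with 6 genes left without a value by the 5 CPM filter. At E10.5 the count of 3551 fell to 109 (18 higher, 91 lower) with the CPM as deposited, to 1639 (630 and 1009) without trend and robust estimation, and to 786 (426 and 360) with the truncated library's zeros as listed. The difference between both contrasts fell from 3329 to 594 (441 and 153) with the CPM as deposited and to 1532 (685 and 847) with the zeros as listed. The CPM as deposited leave E10.5 HLB replicate 2, the truncated library, without its TMM divisor of 1.49961. How far this accounts for the lower counts in that setting was not tested, nor was the cause of the other changes. The planned edgeR and DESeq2 tests were not run because whole reads were not recovered closely enough in the early libraries. Depth limits genes near 0.151 to 0.166 CPM, such as Hoxd12 in FLBs and Lhx1 in HLBs.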

Other observations

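Outside the lists, genes chosen after their values were seen changed as clearly as those named above. Prtg, protogenin, a cell surface protein of early mesoderm and neuroepithelium, stood at 382, 338 and 408 CPM in early FLBs and 92.3, 126 and 115 CPM in early HLBs (log2 fold change -1.76 ± 0.13, adjusted p = 4.50e-04), and at E10.5 the log2 fold change was 1.05 ± 0.11. Nr6a1, an orphan nuclear receptor of early embryos that acts on the number of trunk vertebrae, stood at 149, 149 and 159 CPM in early FLBs and 38.05, 52.4 and 50.6 CPM in early HLBs (log2 fold change -1.70 ± 0.12, adjusted p = 1.11e-04), and at E10.5 the value was 0.74 ± 0.17. Both genes were lower in every early HLB library than in any early FLB library and had the other sign at E10.5. Gata5, a relative of Gata4 in lateral plate mesoderm and heart, fell (log2 fold change -1.95 ± 0.33, adjusted p = 0.0116).

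Among genes that were higher in early HLBs and were chosen in the same way, Smoc1, a matricellular protein that antagonizes BMP signalling, stood at 22.7, 19.1 and 25.2 CPM in early FLBs and 105.1, 68.8 and 76.7 CPM in early HLBs (log2 fold change 1.87 ± 0.18, adjusted p = 0.00148), while Smoc2 was lower. Slc16a10, a transporter of aromatic amino acids and thyroid hormone, rose (log2 fold change 1.00 ± 0.10, adjusted p = 6.34e-05). Vcam1, an adhesion molecule, stood at 14.9, 17.6 and 15.01 CPM in early FLBs and 55.6, 35.2 and 39.1 CPM in early HLBs (log2 fold change 1.40 ± 0.17, adjusted p = 0.00155). No library of one group reached into the other at these genes. Bcl11a and Trib2 were higher early (1.33 ± 0.12 and 1.13 ± 0.09) and stood at -0.74 ± 0.07 and -0.34 ± 0.08 on the log2 scale at E10.5. Loxl2, which cross-links matrix proteins, was lower early (-1.41 ± 0.16).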
